A study of Mus musculus with 9 samples.

Results

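Hippo signalling ends in a small set of nuclear proteins, and 10 of their genes were followed here in mouse bone marrow skeletal progenitors: the coactivator genes Yap1 and Wwtr1, the 4 TEAD transcription factor genes Tead1, Tead2, Tead3 and Tead4, and the 4 target genes Ctgf, Cyr61, Ankrd1 and Amotl2. They were taken by gene name from the 24186 rows of the count table, and where a name had several identifiers the one with the most counts was kept. All 10 were among the 15098 genes with enough counts to be tested. The cells were bone marrow stromal cells from femora and tibiae of adult C57Bl/6 mice with the transgene irtTA-GBD*-TAg, through which dexamethasone and doxycycline switch on the Large T-antigen. The immortalised cells were cloned, and for the last 3 days of culture before sequencing neither drug was given. The 9 libraries were 3 of progenitors with adipogenic potential, 3 of adipogenic progenitors given 10 ng/ml interferon gamma (IFNγ) for 3 days, and 3 of progenitors with osteogenic potential. Each group holds replicates numbered 4, 5 and 6, and all 3 groups share the transgene and the drug withdrawal. The series calls them biological replicates, but which clone or animal each number stands for is not given in the sources used here, so p-values measure the spread between these samples.

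In Hippo signalling a kinase cascade (MST1 and MST2, encoded by Stk4 and Stk3, then LATS1 and LATS2) phosphorylates the coactivators YAP and TAZ and keeps them in the cytoplasm. When the cascade is quiet, for example in spread cells on a stiff surface, YAP and TAZ enter the nucleus, where they bind DNA through TEAD factors and raise genes such as Ctgf, Cyr61, Ankrd1 and Amotl2. In marrow stromal cells YAP and TAZ are known for their part in the choice between bone and fat, with TAZ known as a coactivator of RUNX2 and a repressor of PPARγ. Much of this control acts on the proteins, which mRNA counts do not measure.

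TEAD factors bind the sequence GGAATG, so the promoters of the target genes are shown with each match in capitals, as GGAATG or as CATTCC on the other strand. The windows run from 250 bases before the transcription start to 50 after it, 5′ to 3′ on the gene's strand, from RefSeq on GRCm38.p6. They lie at chr3:145649936-145650235 (minus strand) for Cyr61, which RefSeq lists as Ccn1, at chr19:36119795-36120094 (minus strand) for Ankrd1 and at chr9:102717554-102717853 (plus strand) for Amotl2.
Cyr61: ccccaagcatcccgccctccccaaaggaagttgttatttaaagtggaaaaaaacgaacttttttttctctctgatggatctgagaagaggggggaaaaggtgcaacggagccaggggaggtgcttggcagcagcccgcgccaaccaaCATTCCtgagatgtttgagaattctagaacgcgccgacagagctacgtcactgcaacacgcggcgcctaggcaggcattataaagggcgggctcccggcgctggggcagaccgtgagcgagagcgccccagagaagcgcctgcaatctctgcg
Ankrd1: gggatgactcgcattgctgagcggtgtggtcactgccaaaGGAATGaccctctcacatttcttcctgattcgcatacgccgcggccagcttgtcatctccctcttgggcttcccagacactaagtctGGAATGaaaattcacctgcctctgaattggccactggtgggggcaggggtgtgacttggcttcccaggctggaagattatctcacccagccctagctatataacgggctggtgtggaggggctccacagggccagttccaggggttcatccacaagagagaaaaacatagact
Amotl2: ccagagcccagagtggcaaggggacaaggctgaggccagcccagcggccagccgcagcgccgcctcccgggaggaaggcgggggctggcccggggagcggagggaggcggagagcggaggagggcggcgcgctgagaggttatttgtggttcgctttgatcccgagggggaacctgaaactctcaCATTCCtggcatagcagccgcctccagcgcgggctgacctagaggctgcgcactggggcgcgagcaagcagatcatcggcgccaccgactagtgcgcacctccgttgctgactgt
The match began 103 bases before the start in Cyr61 and 65 before it in Amotl2, and Ankrd1 held 2 matches, 210 and 123 bases before its start. All 3 target windows thus held the word, against 14.7% of the 32851 windows of this length in the RefSeq table. Among all 10 genes, 7 had a window, and 6 of the 7 held GGAATG in at least 1 of their windows (8 of 10 windows). These windows are not independent, since those of Wwtr1 overlap and hold the same match, and neighbouring windows of Tead3 overlap. The 14.7% is a share of single windows, so the count by gene cannot be set against it. The AP-1 word TGANTCA, which reads the same on both strands, was in 0 of the 10 windows and in 7.81% of all windows. These matches are letters in a fixed window, not measured binding, and Ctgf, Tead1 and Tead4 had no entry.

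Library totals ran from 27440089 to 39251602 counts, so a count of 0 would allow up to 0.0749 to 0.113 CPM, taken as 3 counts and covering counting error only. CPM is the count per 1000000 counts of the scaled library total. All 10 genes were far above this in every library. Osteoblast markers set the osteogenic libraries apart (summed level of 7 genes 318 to 649 CPM, against 13.2 to 24.8 untreated and 7.36 to 19.2 after IFNγ). Of 6 markers of mature fat cells, 5 had a mean under 1 CPM in every group (Adipoq at most 0.200 CPM in any library). Fabp4 reached up to 234 CPM untreated, 171 CPM after IFNγ and 33.9 CPM in osteogenic libraries. Of the 9 haematopoietic markers, 6 or 7 had a mean under 1 CPM in each group, and the summed level was at most 30.5 CPM. The 6 endothelial markers summed to 11.7 to 20.0 CPM untreated, 24.3 to 61.3 after IFNγ and 2.51 to 3.08 in osteogenic libraries, with Kdr at a mean of 12.0, 39.4 and 1.73 CPM, and Emcn was at 0 in all 3 groups. In such bulk libraries, fewer cells that express a gene and less RNA per cell cannot be told apart.

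The 2 CCN genes, Ctgf and Cyr61, had the largest differences of the 10: their mean levels after IFNγ were 283 and 444 CPM, against 1247 and 1515 CPM untreated and 1326 and 1790.2 CPM in osteogenic libraries. The coactivator genes and the other 2 target genes were called in none of the comparisons, with or without pairing. In edgeR's quasi-likelihood test on all 9 libraries, 0 of 10 genes passed an adjusted p of 0.05 for IFNγ against untreated, where 2.26% of all tested genes passed. Cyr61 alone had an unadjusted p under 0.05, as did 14.3% of all genes. After adjustment DESeq2 called 1 of 10, also Cyr61 (7.11% of all genes), and limma-voom called 0 (2.64%). Untreated and treated libraries of the same number deviated together from their group means (r from 0.769 to 0.779 across genes), and with the number as a block 3 of 10 genes were called, all lower: Ctgf, Cyr61 and Tead3. In that fit of 6 libraries 16.6% of all genes were called and 8.02% were called lower. A block for the numbers of the adipogenic libraries in the fit on all 9, added after seeing the pairing, called Ctgf and Cyr61. It called 10.8% of all genes, and 4.27% lower. The planned block for the number in all 9 libraries, osteogenic ones included, called Tead3 alone, lower. It called 474 of 15098 genes, 87 of them lower.

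For osteogenic against untreated adipogenic libraries, 0 of 10 genes were called, against 5.17% of all genes. Tead1 alone had an unadjusted p under 0.05, as did 23.3% of all genes. It was the 1 gene called by DESeq2 (14.8% of all genes), and limma-voom called 0 of 10 (4.79%). For IFNγ-treated adipogenic against osteogenic libraries, 1 of 10 was called, Cyr61, lower, against 16.7% of all genes in either direction and 7.52% lower; DESeq2 called 2, Cyr61 and Ctgf, against 25.5%. This last comparison differs in both progenitor kind and treatment, which cannot be told apart, and the 3 comparisons share libraries. The median log2 fold change of the 10 genes was −0.12 for IFNγ against untreated, 0.15 for osteogenic against untreated and −0.38 for treated against osteogenic, beside −0.02, −0.02 and 0.03 over all genes.

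**Figure D1:**
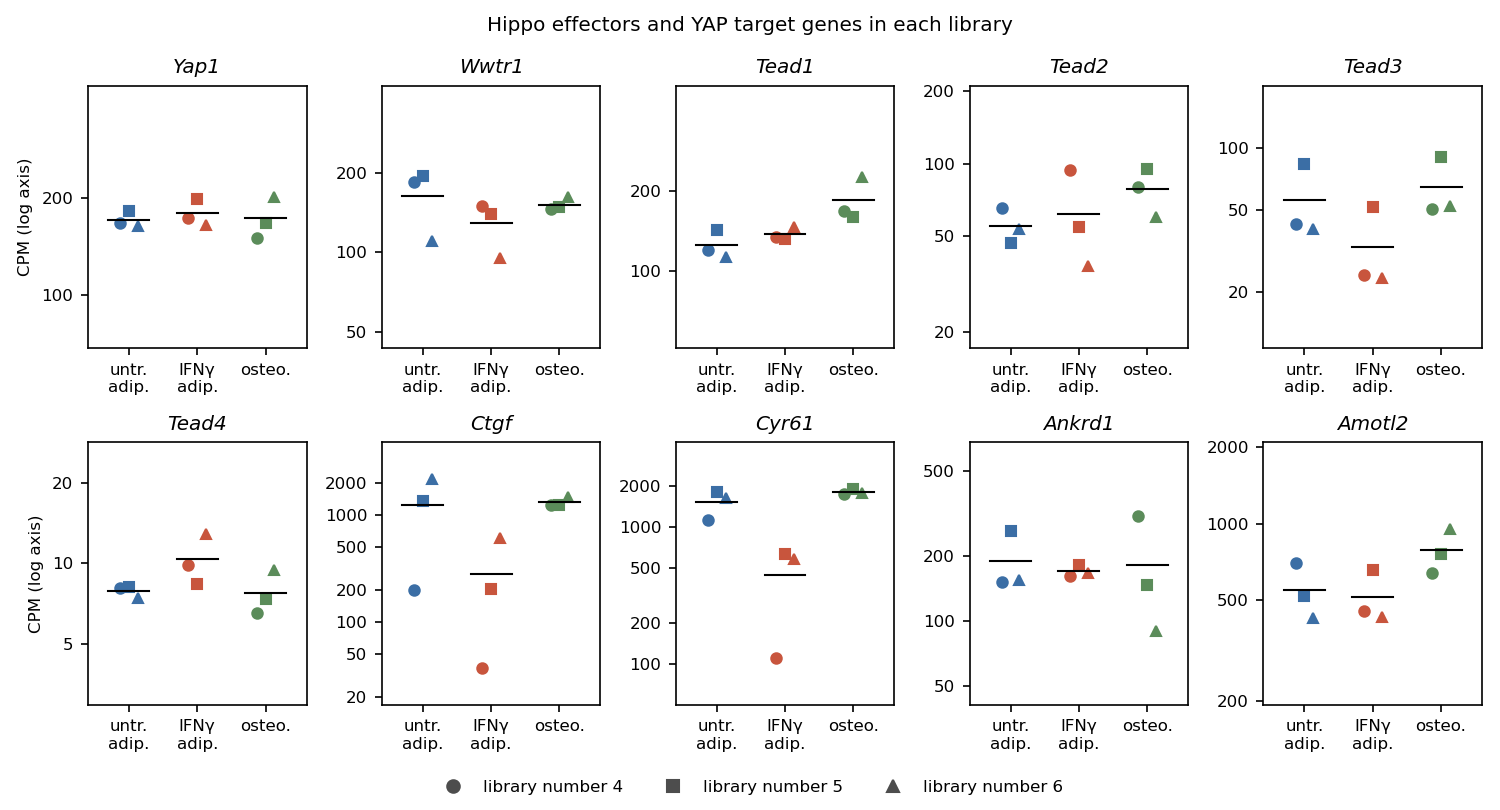
Level of each of the 10 genes in each library (y axis, CPM, log scale; x axis, untreated adipogenic, IFNγ-treated adipogenic and osteogenic). Points are libraries 4, 5 and 6 of a group and lines their means; Ctgf and Cyr61 lie low in the treated libraries (37.5 to 608 and 111 to 636 CPM), while Yap1 lies between 150.4 and 202 CPM in all 9.

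Yap1, which encodes YAP, differed by at most 1.34-fold between the libraries of any group. Its untreated levels were 167, 182 and 163 CPM, its IFNγ-treated levels 173, 199 and 165 CPM and its osteogenic levels 150.4, 167 and 202 CPM. The 3 groups overlapped throughout. The log2 fold change was 0.07 ± 0.14 (SE; adjusted p 0.898, edgeR) for IFNγ against untreated and 0.02 ± 0.14 (0.951) for osteogenic against untreated. Yap1 was higher in the treated library of all 3 pairs, by 0.02 to 0.13 on the log2 scale, a direction that 26.9% of all genes shared.

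Wwtr1 encodes TAZ, the close relative of YAP. It stood at 185, 194 and 111 CPM untreated, at 150.4, 140.3 and 95.4 CPM after IFNγ and at 145, 148 and 162 CPM in osteogenic libraries. Library 6 was the lowest of both adipogenic groups, and the groups overlapped. Each treated library was below its untreated partner, at 81.5%, 72.3% and 86.2% of it for numbers 4, 5 and 6, and 29.7% of all genes were lower in all 3 pairs. The log2 fold change was −0.34 ± 0.24 (adjusted p 0.609), and with the replicate block the adjusted p was 0.0611, so Wwtr1 passed in neither fit. Per kilobase of exon, Yap1 was 1.04, 1.07 and 1.69 times Wwtr1 in untreated libraries, 1.32, 1.63 and 1.99 times in treated ones and 1.19, 1.29 and 1.43 times in osteogenic ones. The ratio was above 1 in all 9 libraries, and its ranges overlapped between groups.

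The TEAD genes encode the DNA-binding partners of both coactivators, and Tead1, Tead2 and Tead3 each made up a larger share of their summed level than Tead4 in all 9 libraries. Of their summed level (CPM per kilobase), Tead1 made up 29.6% ± 0.923 (SD, n = 3) untreated, 34.9% ± 7.54 after IFNγ and 33.5% ± 8.82 in osteogenic libraries. Tead2 made up 32.0% ± 8.14, 36.0% ± 12.2 and 33.5% ± 5.63. Tead3 made up 32.6% ± 9.24, 20.8% ± 9.17 and 28.7% ± 6.28. Tead4 made up 5.87% ± 0.615, 8.32% ± 3.15 and 4.35% ± 1.03. Per kilobase the order of the first 3 was not stable, since their shares overlapped within each group. They differed widely in some libraries (Tead2 49.9% and Tead3 13.6% in treated library 4). Without division by exonic length Tead1 was the largest in every library, at 45.3% to 66.5%, against at most 35.8% for Tead2 and 29.7% for Tead3. The summed level was 37.8 ± 5.68 CPM per kilobase untreated, 35.9 ± 5.24 treated and 50.1 ± 6.38 osteogenic, with the 3 osteogenic libraries (45.3 to 57.3) above all 6 adipogenic ones (30.1 to 44.0).

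**Figure D2:**
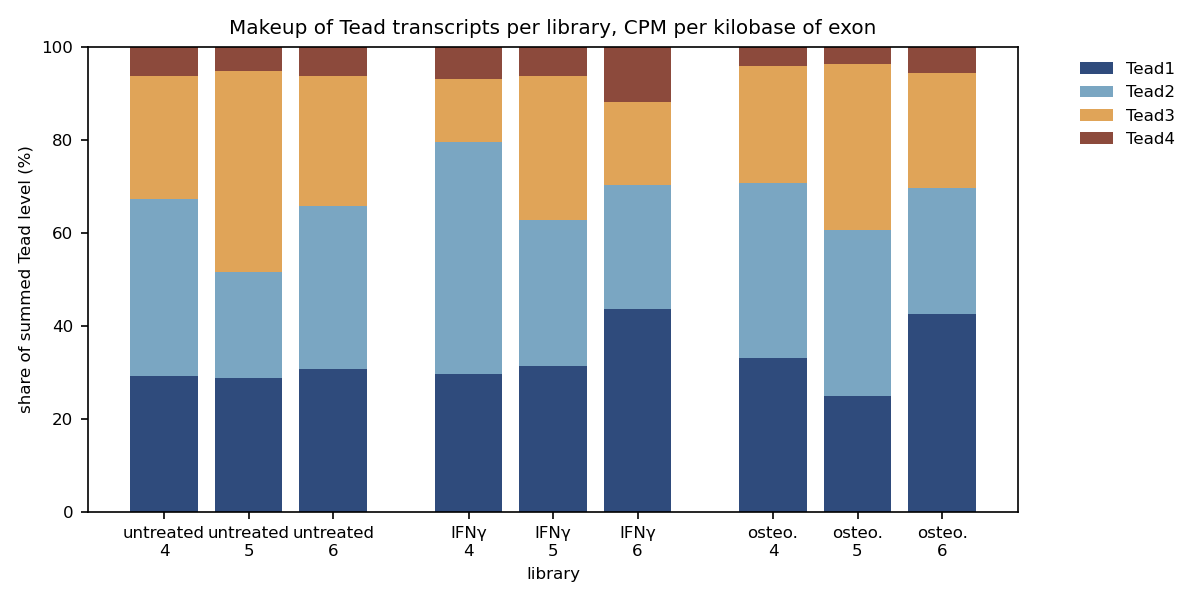
Share of Tead1, Tead2, Tead3 and Tead4 in their summed level per kilobase of exon (y axis, percent) in each of the 9 libraries (x axis, by group and number). Tead4 is the thinnest band in every library, and the Tead3 band runs from 13.6% to 31.1% after IFNγ against 26.5% to 43.2% untreated.

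Tead1 was highest in the osteogenic libraries. It stood at 120.2, 143 and 113 CPM untreated, at 134, 132 and 147 CPM after IFNγ and at 169, 160.1 and 227 CPM in osteogenic libraries. Every osteogenic library was above all 6 adipogenic libraries, a separation from the untreated group in the same direction that 15.0% of all genes shared. The log2 fold change against untreated was 0.57 ± 0.16, and it missed the threshold (adjusted p 0.0863, edgeR; 0.0172 in DESeq2; 0.0172 to 0.264 over the alternatives). IFNγ-treated libraries were lower than osteogenic ones by −0.43 ± 0.16 in log2 (adjusted p 0.111). A second identifier with the same name, a 1-exon row of 3848 bases beside the 17-exon row of 11235 bases used here, held 23679 counts against 46076. Its log2 fold change for osteogenic against untreated was 0.51 (adjusted p 0.107).

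Of the 4 TEAD genes, Tead3 had the most even differences within pairs. Its levels were 42.7, 83.6 and 40.4 CPM untreated and 24.1, 51.4 and 23.4 CPM after IFNγ, and it stood at 50.2, 90.5 and 52 CPM in osteogenic libraries. Library 5 was the highest in all 3 groups, and the treated and untreated ranges overlapped. Within pairs the treated library held 56.3%, 61.5% and 58.0% of the untreated level. The unpaired log2 fold change was −0.75 ± 0.42 (adjusted p 0.494), and leaving out a library moved it to between −1.24 (without treated library 5) and −0.33 (without untreated library 5). With the replicate block on the 6 libraries Tead3 fell by 0.79 ± 0.08 on the log2 scale (adjusted p 0.00708). The planned block in all 9 libraries also called Tead3 (log2 fold change −0.77 ± 0.11, adjusted p 0.0180). That block also ties osteogenic libraries to adipogenic ones of the same number, although these did not deviate together. The Tead3 call was lost with the block for the adipogenic numbers alone in all 9 (adjusted p 0.0870). Against osteogenic libraries the treated level was −0.96 ± 0.42 in log2 (adjusted p 0.159).

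Tead2 and Tead4 did not pass in any comparison. Tead2 stood at 65.1, 46.6 and 53.7 CPM untreated, at 93.6, 54.7 and 37.7 CPM after IFNγ and at 79.8, 95.4 and 60.1 CPM in osteogenic libraries. The pairs went in different directions for Tead2, 144% and 117% of untreated for numbers 4 and 5 and 70.2% for number 6. Tead4 was the least abundant of the 10 genes per kilobase, at 8.08, 8.17 and 7.44 CPM untreated, 9.87, 8.35 and 12.9 CPM treated and 6.5, 7.34 and 9.43 CPM osteogenic. All 3 treated Tead4 levels lay above the untreated ones, as for 10.2% of all genes, with a log2 fold change of 0.39 ± 0.22 (adjusted p 0.496).

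Ctgf and Cyr61 encode secreted matrix-associated proteins of the CCN family, also named CCN2 and CCN1, and are the most used readouts of YAP and TAZ activity. Ctgf stood at 200.2, 1365 and 2176 CPM in untreated libraries 4, 5 and 6. After IFNγ it stood at 37.5, 205 and 608 CPM in the libraries of the same numbers. The osteogenic libraries held 1253, 1244 and 1479 CPM. Library 4 was by far the lowest of each adipogenic group, and the highest treated library exceeded the lowest untreated one, so those groups overlapped, while all 3 treated libraries were below all 3 osteogenic ones, as for 18.8% of all genes.

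Within each numbered pair the treated Ctgf level was 18.7%, 15.0% and 28.0% of the untreated level. These pair values lie close together although the untreated libraries differed 10.9-fold among themselves. The unpaired log2 fold change was −2.14 ± 1.01 (adjusted p 0.397), and leaving out a library moved it to between −3.34 (without treated library 6) and −1.46 (without untreated library 6). With the replicate block on the 6 libraries Ctgf fell by 2.35 ± 0.20 on the log2 scale (adjusted p 0.00485). With the block for the adipogenic numbers in all 9 libraries it fell by 2.33 ± 0.19 (adjusted p 0.00167). With the planned block in all 9 the log2 fold change was −2.29 ± 0.74, and Ctgf did not pass (adjusted p 0.170). Over all alternatives the adjusted p ran from 0.00167 to 0.642.

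Ctgf also had an unusual spread between replicates. The SD of its log2 level (CPM plus a pseudocount of 0.5) was 1.82 untreated and 2.02 treated, at the 98.9th and 99.3rd percentile of all tested genes, and 0.141 in osteogenic libraries, at the 36.4th. The osteogenic mean of 1326 ± 133 CPM (SD, n = 3) lay close to the untreated mean of 1247 ± 993, with a log2 fold change of 0.09 ± 0.97 (adjusted p 0.968). The treated mean was 283 ± 293 CPM. Treated against osteogenic libraries gave −2.23 ± 1.02 (adjusted p 0.173; 0.0446 in DESeq2).

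Cyr61 was lower in every treated library than in any other. It stood at 1129, 1799.8 and 1617 CPM untreated, at 111, 636 and 585 CPM after IFNγ and at 1732, 1881 and 1758 CPM in osteogenic libraries. The 3 treated libraries were below all 6 others, a separation from untreated that 7.17% of all genes shared. Treated library 4 was the lowest, at 9.86% of its untreated partner, against 35.3% and 36.2% for numbers 5 and 6.

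The unpaired log2 fold change of Cyr61 for IFNγ against untreated was −1.77 ± 0.55, and it did not pass (adjusted p 0.174). It passed in DESeq2 (adjusted p 0.0165) and without treated library 4 (0.0343). With the replicate block on the 6 libraries Cyr61 fell by 2.10 ± 0.44 on the log2 scale (adjusted p 0.0368). With the block for the adipogenic numbers in all 9 it fell by 2.08 ± 0.38 (0.0214). With the planned block in all 9 the log2 fold change was −1.95 ± 0.49, and Cyr61 did not pass (0.0978). Over all alternatives the adjusted p ran from 0.0165 to 0.359.

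Against osteogenic libraries the treated level of Cyr61 was lower by −2.01 ± 0.55 in log2 (adjusted p 0.0418, edgeR). This call held without treated library 4 (adjusted p 0.00727). It was lost without treated library 5 (0.0543) or 6 (0.0863), and without osteogenic library 4 (0.101), 5 (0.110) or 6 (0.0952). It was also lost in the fit on the 6 libraries alone (0.0726) and with no filter on low counts (0.0563). With the replicate block on the 6 libraries it was lost as well (0.0912), and Tead3 was called instead (0.0294). That block called 1257 of 14562 genes. It pairs treated with osteogenic libraries by number, although same-numbered ones did not deviate together. Untreated and osteogenic levels of Cyr61 overlapped (log2 fold change 0.24 ± 0.53, adjusted p 0.831).

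**Figure D3:**
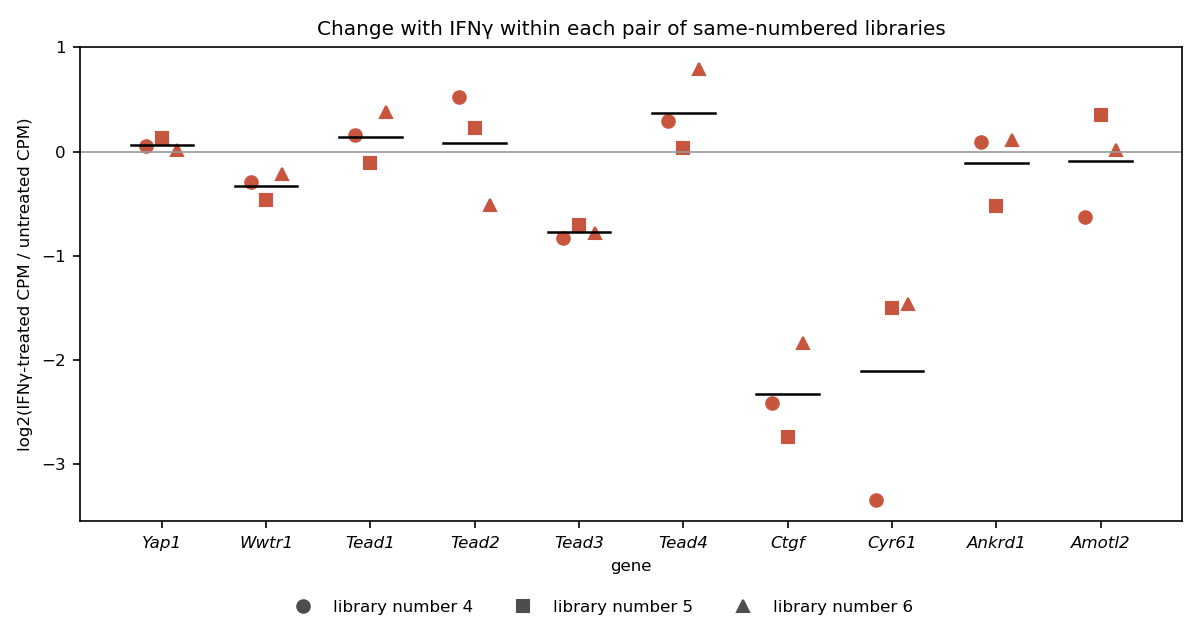
Change of each gene from an untreated adipogenic library to the IFNγ-treated library of the same number (y axis, log2 of treated over untreated CPM; x axis, genes; points, pairs 4, 5 and 6; lines, their means). Ctgf lies between −2.74 and −1.84, Cyr61 between −3.34 and −1.47 and Tead3 between −0.83 and −0.70, while Yap1 lies between 0.02 and 0.13.

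The summed level of smooth muscle cell markers was also lower after IFNγ. Acta2, Tagln, Myl9 and 5 other smooth muscle and pericyte markers summed to 2324 to 4888 CPM untreated, 1055 to 1724 CPM after IFNγ and 7544 to 19430 CPM in osteogenic libraries. For IFNγ against untreated 8 of 8 had a negative log2 fold change, 0 passed without the block (3 at an unadjusted p under 0.05), 7 were lower with it on the 6 libraries and 4 with the block for the adipogenic lines, beside 8.02% and 4.27% of all genes lower. Their part in the Ctgf and Cyr61 values was not tested. The summed level was higher in the osteogenic libraries than in the untreated ones, but single markers went both ways. For that comparison 6 of 8 had a positive log2 fold change and 2 a negative one. In edgeR 1 passed, higher, beside 5.17% of all genes, while DESeq2 called 4 (14.8%) and limma-voom 1 (4.79%). Ctgf and Cyr61 levels overlapped between these groups.

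Per kilobase of exon the 2 CCN genes were among the most abundant transcripts. Cyr61 stood at 747 ± 171 CPM per kilobase untreated, the 99.7th percentile of tested genes, at 219 ± 143 treated (98.8th) and at 883 ± 39.5 osteogenic (99.8th). Ctgf stood at 501 ± 399 (99.6th), 114 ± 118 (97.0th) and 532 ± 53.5 (99.6th). Both thus stayed in the upper part of the range after IFNγ. Ctgf was at 0.144, 0.618 and 1.10 times the Cyr61 level per kilobase in untreated libraries 4, 5 and 6, at 0.274, 0.262 and 0.847 times after IFNγ, and at 0.589, 0.539 and 0.686 times in osteogenic libraries. The ratio was below 1 in 8 of 9 libraries and showed no separation between groups.

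The remaining targets, Ankrd1 and Amotl2, did not follow the CCN genes. Ankrd1 encodes a nuclear ankyrin repeat protein known from heart and skeletal muscle. It stood at 152, 261 and 156 CPM untreated, at 163, 182 and 168 CPM after IFNγ and at 309, 148 and 90.2 CPM in osteogenic libraries. Only pair 5 was lower after IFNγ, at 69.6% of untreated, and pairs 4 and 6 stood at 107% and 108%. The log2 fold change was −0.15 ± 0.41 (adjusted p 0.929). In the osteogenic group Ankrd1 had the widest spread of the 10 genes, 3.42-fold from lowest to highest, at the 96.4th percentile of all tested genes for the SD of its log2 level.

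Amotl2 encodes an angiomotin family protein that binds YAP and holds it back, so it is both a target and an inhibitor. Its levels were 699, 517 and 427 CPM untreated, 453, 659 and 431 CPM treated and 643, 763 and 953 CPM osteogenic. The ranges of all 3 groups overlapped. Pair 4 was lower after IFNγ (64.8% of untreated), pair 5 higher (127%) and pair 6 near equal (101%). The log2 fold change was −0.09 ± 0.25 (adjusted p 0.930) for IFNγ against untreated, 0.52 ± 0.25 (0.259) for osteogenic against untreated and −0.61 ± 0.25 (0.139) for treated against osteogenic.

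**Figure D4:**
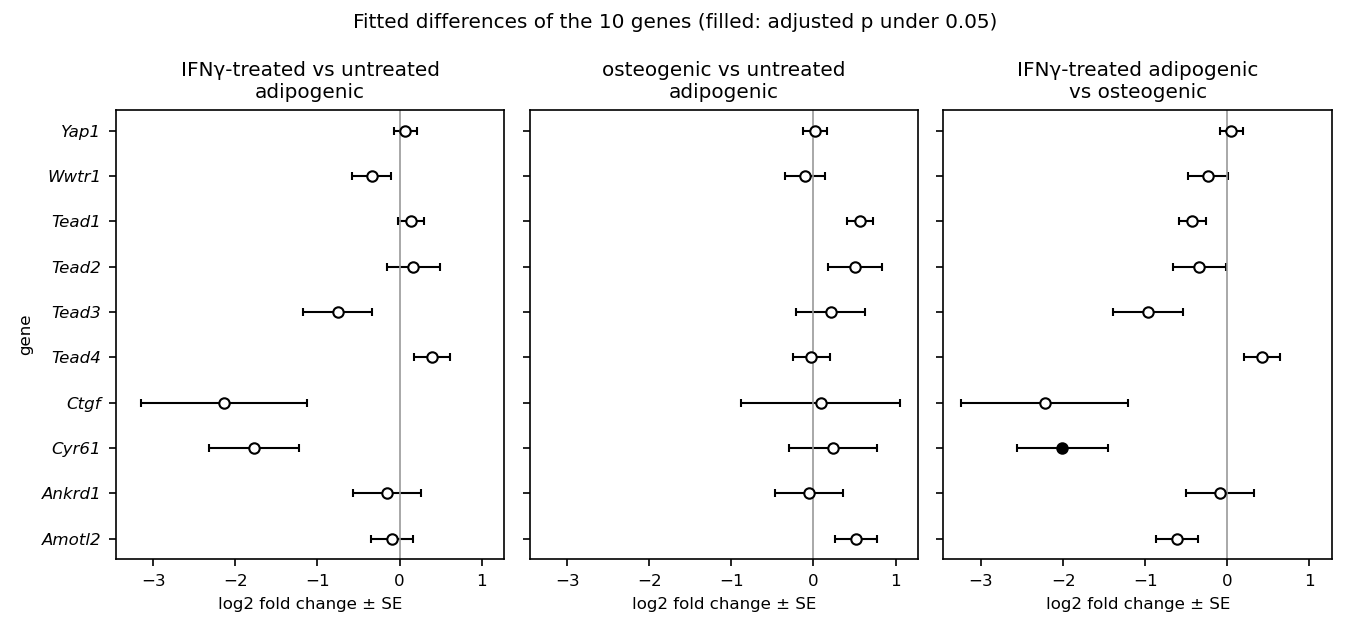
Log2 fold change (x axis) of the 10 genes (y axis) in the 3 comparisons, with bars of 1 SE from edgeR's fit on all 9 libraries; the filled point passed the threshold. Ctgf and Cyr61 lie furthest to the left in both comparisons that involve IFNγ-treated libraries, and in the comparison of osteogenic with untreated libraries the largest value is 0.57, for Tead1.

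The rest of the pathway was read from lists drawn up from general knowledge. The 7 genes of the kinase core (Stk3, Stk4, Sav1, Lats1, Lats2, Mob1a and Mob1b) had 0 calls in all 3 comparisons. In the order IFNγ against untreated, osteogenic against untreated and treated against osteogenic, 2.26%, 5.17% and 16.7% of all genes were called. Of the 7 genes 0 had an unadjusted p under 0.05, beside 14.3% and 23.3% of all genes in the first 2 comparisons. That share is not given here for the third. With the replicate block on the 6 libraries 0 were called, beside 2446 of 14705, 23 of 14564 and 1257 of 14562 genes. DESeq2 and limma-voom called 0 of these 7 as well. Over all genes limma-voom called 2470 of 15098 for treated against osteogenic, and the other shares are given above. Lats2, whose kinase phosphorylates YAP and which is itself a YAP target gene, had a mean of 128 CPM untreated, 127 treated and 149.8 osteogenic. Of 11 upstream regulators 0 passed for IFNγ against untreated (1 before adjustment, beside 14.3% of all genes, 0 with DESeq2, 0 with limma-voom). With the replicate block on the 6 libraries Wwc1 was higher, and Frmd6 and Dchs1 lower. That fit called 16.6% of all genes, and 8.02% lower. These 3 genes were named after their values were seen. With the block for the adipogenic numbers in all 9 libraries Frmd6 alone was called (adjusted p 0.0350), beside 10.8% of all genes. Wwc1 (0.0558) and Dchs1 (0.144) were not called. For osteogenic against untreated 0 of the 11 passed, beside 5.17% of all genes. Before adjustment 4 had p under 0.05 (23.3% of all genes), while DESeq2 called 3 (14.8%) and limma-voom 0 (4.79%).

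Between IFNγ-treated and osteogenic libraries, 1 of the 11 upstream genes was higher and 4 were lower in edgeR. Of all genes 16.7% were called in either direction and 7.52% lower. DESeq2 called 6 of the 11 (25.5% of all genes) and limma-voom 4 (2470 of 15098 genes). With the replicate block on the 6 libraries 1 was higher and 1 lower, where 1257 of 14562 genes were called. Wwc1, which encodes the scaffold KIBRA that brings the kinases together, stood at 60.7 ± 20.5 CPM (SD, n = 3) treated against 19.7 ± 1.72 osteogenic (log2 fold change 1.62 ± 0.31, adjusted p 0.0111), and the call held without any 1 of the 6 libraries. Fat4, a giant protocadherin, stood at 26.9 ± 11.1 against 177 ± 61.3 CPM (−2.72 ± 0.61, adjusted p 0.0204). Its call was lost without treated library 4 or 6 or osteogenic library 4 or 6 (adjusted p up to 0.0746). Dchs1, which encodes the ligand of FAT4, and Taok2, which encodes a kinase that acts on MST kinases, were lower with adjusted p of 0.0418 and 0.0389, and the remaining gene, Frmd6, had 0.0496. The calls of Dchs1 and Taok2 were each lost without any 1 of the 6 libraries, and that of Frmd6 without any except treated library 5.

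Among 8 genes whose proteins bind YAP, TAZ or TEAD or inhibit LATS kinases, 0 passed for IFNγ against untreated with or without the block. The count was also 0 before adjustment, with DESeq2 and with limma-voom. In osteogenic against untreated libraries 2 rose, beside 5.17% of all genes called. Vgll3, a cofactor of TEAD, stood at 189 ± 28.4 against 103 ± 11.4 CPM (0.87 ± 0.19, adjusted p 0.0410), and Vgll4, which competes with YAP for TEAD, at 94.3 ± 19.9 against 47.3 ± 6.46 CPM (1.00 ± 0.23, adjusted p 0.0470). Both calls were lost without any 1 of the 6 libraries (adjusted p up to 0.144). In treated against osteogenic libraries 3 of the 8 were lower, beside 7.52% of all genes: Vgll3 (−1.11 ± 0.19, adjusted p 0.00709), which held without any 1 library, and Wtip (−0.91 ± 0.20, 0.0175) and Ajuba (−0.80 ± 0.22, 0.0435), LIM proteins that inhibit LATS kinases. The Wtip call was lost without treated library 6 or osteogenic library 4 or 5. The Ajuba call was lost without any 1 except treated library 5. For this comparison DESeq2 called 5 of the 8 (25.5% of all genes) and limma-voom 4 (2470 of 15098 genes). With the replicate block on the 6 libraries 3 were lower, where 1257 of 14562 genes were called.

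A list of 22 genes often used as a YAP signature holds all 4 target genes above. Of the other 18 genes, 1 passed in edgeR for IFNγ against untreated (beside 2.26% of all genes). Before adjustment 5 had p under 0.05 (14.3%), while DESeq2 called 2 (7.11%) and limma-voom 1 (2.64%). For osteogenic against untreated 0 passed (5.17%), 8 before adjustment (23.3%), 5 with DESeq2 (14.8%) and 0 with limma-voom (4.79%). For treated against osteogenic 7 passed (16.7%), 10 with DESeq2 (25.5%) and 7 with limma-voom (2470 of 15098 genes). The 1 gene called by edgeR for IFNγ against untreated was Tgfb2, a TGF-β ligand. It fell from 62.3 ± 10.3 to 23.8 ± 5.73 CPM (−1.39 ± 0.23, adjusted p 0.0192, and 0.00362 with the replicate block). The call without the block was lost without untreated library 5 or 6 or treated library 6 (adjusted p up to 0.0725). With the block on the 6 libraries Ccdc80, a matrix protein gene, also fell (−0.90, adjusted p 0.00681), while Axl, a receptor tyrosine kinase gene (0.59, 0.0398), and Nuak2, a kinase gene (0.66, 0.0237), rose. These 3 were named after their values were seen, and that fit called 16.6% of all genes. The median log2 fold change of the 18 genes for IFNγ against untreated was −0.15, beside −0.02 over all genes.

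In treated against osteogenic libraries 3 of these 18 were higher and 4 lower. Of all genes 16.7% were called in either direction and 7.52% were called lower. Axl stood at 846 ± 20.7 against 366 ± 46.6 CPM (1.21 ± 0.17, adjusted p 0.00308). Tgfb2 (−1.51 ± 0.23, 0.00433), Ccdc80 (−1.99 ± 0.33, 0.00612) and Rbms3, an RNA-binding protein gene (−0.98 ± 0.19, 0.0105), were lower. The calls of these 4 genes held without any 1 of the 6 libraries.

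The genes whose pattern was most like that of a given gene were found by the root mean square (RMS) difference of log2 levels (CPM plus 0.5), each centred on its own mean over the 9 libraries, among 10926 genes with a mean of at least 5 CPM. For Ctgf they included Smoc2 (RMS 0.487) and Slc43a2 (0.805), beside a median of 1.84 over all genes. Smoc2 encodes a matricellular protein and Slc43a2 an amino acid transporter. Cyr61 ranked 9th for Ctgf (0.881), whereas at the same RMS Ctgf ranked 188th for Cyr61. For Cyr61 they were Palld (0.467), which encodes the actin-associated protein palladin, Thbs1 (0.479), which encodes thrombospondin 1, and Gm22 (0.489), beside a median of 1.30. For Yap1 they were Ccdc71 (0.0620), Pdcd7 (0.0678) and Pcgf1 (0.0717), beside a median of 0.324. For Wwtr1 they were Gcc1 (0.0897), Trim3 (0.0976) and Nradd (0.0989), beside a median of 0.431. These values describe likeness over 9 libraries in 3 groups and carry no test.

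**Figure D5:**
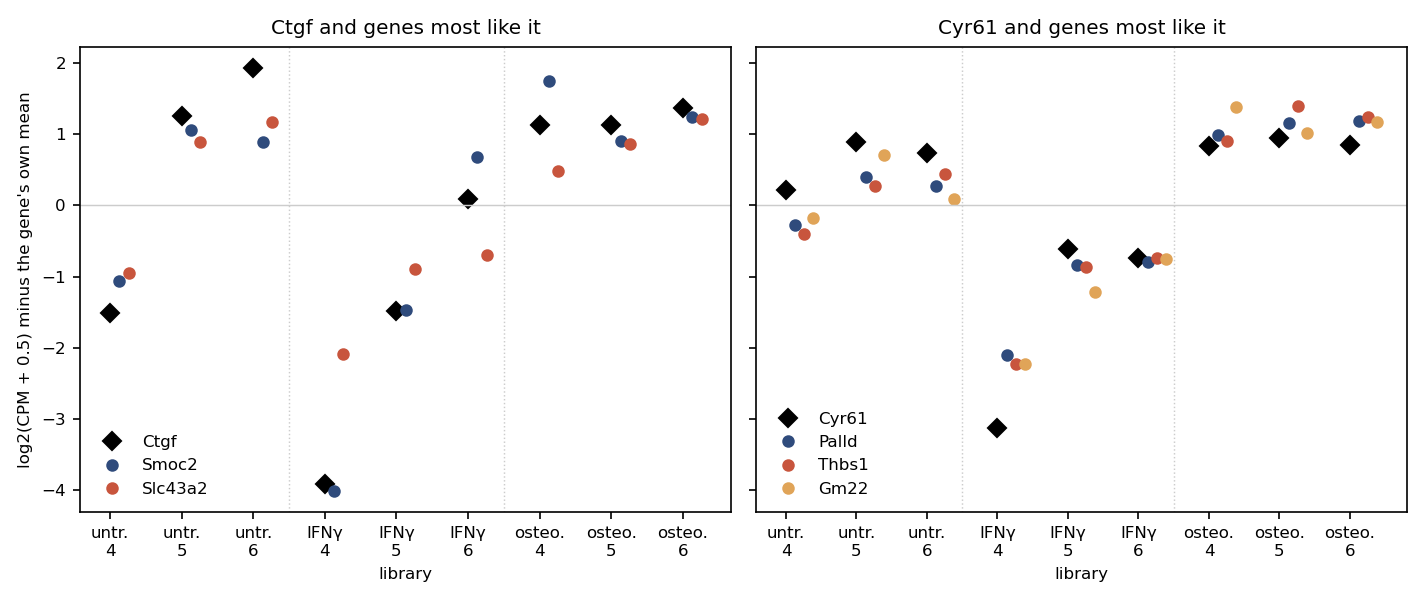
Pattern of Ctgf (left) and Cyr61 (right) with genes most like each (y axis, log2 of CPM plus 0.5, minus the gene's mean over the 9 libraries; x axis, libraries). Diamonds are Ctgf or Cyr61 and circles the other genes; treated library 4 is the lowest point of all 7 genes shown.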

How the data were processed

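Per the labels' protocols, the 9 libraries were made from poly(A) RNA with a strand-marking kit and read in single 75-base reads. The authors deposited unnormalized whole-number counts, 1 row per Ensembl gene. Listed in the submitters' processing notes are the build mm9, bedtools 2.11 and CASAVA 1.8.0. No source used here names an aligner, a counter or a strand setting, so reads shared by gene family members or by overlapping or antisense genes are uncertain. The main test used edgeR 4.0.16 in R 4.3.3 (filterByExpr by group, TMM scaling, robust quasi-likelihood fit on all 9 libraries, two-sided F tests, Benjamini-Hochberg adjustment over 15098 genes, threshold 0.05; biological coefficient of variation 0.378) and was checked on simulated counts. A standard error is the log2 fold change over the square root of F. Levels are CPM from TMM-scaled totals, divided by the deposited exonic length where genes are compared.

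Groups and numbers come from the titles. Numbers were taken to pair untreated and treated adipogenic libraries, since same-numbered libraries deviated together (r of 0.778, 0.769 and 0.779, other pairs −0.461 to −0.279); osteogenic libraries did not (−0.0546 to 0.0552). No 2 libraries of a group agreed within sampling noise. Alternatives were DESeq2 1.42.0, limma-voom (limma 3.58.1), other scalings and filters, replicate blocks, and leaving out each library.

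The genes and lists were chosen with earlier results of these data known. Named beside the 10 genes were up to 4 genes per pathway list and comparison with the smallest adjusted p past the threshold, up to 3 markers per cell type, and the 3 nearest patterns for Yap1, Wwtr1, Ctgf and Cyr61, of which 1 is not reported here. Emr1, Cd3e, Cldn5 and Lep had no match in the table.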

Additional observations from a re-analysis of the deposited data

How the results depend on the processing

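Of the 10 genes, edgeR called 0 for IFNγ against untreated. DESeq2 called 1, the replicate block on the 6 libraries called 3, and the replicate block in all 9 called 1, Tead3. When the block covered only the adipogenic numbers, an alternative chosen after seeing the data, 2 were called. Leaving out a library gave 0 to 1. For osteogenic against untreated DESeq2 called 1. For treated against osteogenic, where 1 was called, DESeq2 called 2, and no filter and the 6 libraries alone called 0 each. The replicate block in all 9 libraries called 3, all lower, where 3262 of 15098 genes were called and 1562 were lower. Leaving out a library gave 0 to 1. Over all genes, 341 were called for IFNγ against untreated. DESeq2 called 1068 and the 6 libraries alone 178. The replicate block called 2446 on 6 libraries and 1631 for the adipogenic numbers, and leaving out a library gave 194 to 278. For osteogenic against untreated the 780 calls became 2226 with DESeq2, 23 with the replicate block on 6 libraries, 1244 with it in all 9, and 159 to 475 without a library. For treated against osteogenic the 2525 calls became 3830 with DESeq2, 1257 with the replicate block on 6 libraries and 3262 with it in all 9. They became 1312 to 1979 without a library. The block changed the calls of Ctgf, Cyr61 and Tead3 for IFNγ against untreated; osteogenic numbers pair nothing.

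With total counts alone the log2 fold change of osteogenic against untreated turned to −0.094 for Yap1 and −0.033 for Ctgf, and the median of all genes went from −0.02 to −0.12 there and from 0.03 to 0.12 for treated against osteogenic. Calls over all genes then split into 221 higher and 645 lower, against 299 and 481, for osteogenic against untreated, and into 1698 and 903, against 1389 and 1136, for treated against osteogenic. With upper-quartile scaling Yap1 turned to −0.015 for treated against osteogenic. In that comparison Ankrd1 turned to 0.089 with limma-voom, 0.089 with the replicate block on 6 libraries and 0.022 in all 9. Leaving out a library moved the log2 fold change for IFNγ against untreated over −0.030 to 0.13 for Yap1, −0.24 to 0.43 for Tead2, −0.28 to 0.15 for Ankrd1 and −0.33 to 0.13 for Amotl2. For osteogenic against untreated it ran over −0.10 to 0.11 for Yap1, −0.32 to 0.041 for Wwtr1, −0.12 to 0.63 for Tead3, −0.19 to 0.082 for Tead4, −0.42 to 0.76 for Ctgf and −0.68 to 0.27 for Ankrd1. For treated against osteogenic it ran over −0.048 to 0.17 for Yap1 and −0.42 to 0.53 for Ankrd1. None of these reversed values was past the threshold; the cause was not tested. Without division by exonic length the Tead1 share was 51.4% untreated, 57.1% treated and 55.2% osteogenic, the largest in every library. In the same order the Tead2 share was 23.1%, 25.0% and 23.5%, the Tead3 share 22.2%, 13.5% and 19.0%, and the Tead4 share 3.27%, 4.33% and 2.30%. The second Tead1 identifier was left out of all shares. Counting depth did not limit these genes, all above 6 CPM in every library. With 3 libraries a group the smallest two-sided p of an exact permutation test is 0.1.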
